A study of Homo sapiens with 2 samples.

Results

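The 6 linker histone (H1) genes of the major histone cluster on chromosome 6 were described in the chromatin map of HEK293T. This is an established line derived from human embryonic kidney that carries the SV40 large T antigen, and the sample titles read HEK293. The genes were HIST1H1A, HIST1H1C, HIST1H1T, HIST1H1E, HIST1H1D and HIST1H1B, and the region was set by position alone, as 25.5 to 28.2 Mb of chromosome 6 in hg19. It held 9 of 3845 listed contact domains, 2 of 1507 listed loops and 2 whole compartment bins of 2883 with a score. The map came from in situ Hi-C, which joins and sequences DNA ends that lie close together in fixed nuclei, of 2 libraries in 1 group. The cells had no treatment other than formaldehyde fixation, and there was no second group. All 3 deposited tables describe the libraries together, so the spread between replicates is unknown and no test between samples could be made.

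Linker histones bind the nucleosome where DNA enters and leaves it and take part in compacting chromatin, while the core histones H2A, H2B, H3 and H4 form the nucleosome itself. Most genes of the cluster are replication-dependent: they have no introns, are transcribed mainly in S phase and give messages that end in a stem-loop instead of a poly(A) tail. HIST1H1A, HIST1H1C, HIST1H1D, HIST1H1E and HIST1H1B encode somatic H1 variants, and HIST1H1T encodes the variant of the male germ line. The table of contacts holds no expression values, so nothing below says which of these genes were active.

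The promoter sequences of the 6 genes are shown with 1 element, the H1 box, marked. Over 300 bases and on either strand it was found in all 6 promoters and in none of the 48 matched core histone promoters of chromosome 6. The printed stretch of HIST1H1A holds no copy, since its only one lies further from the start, on the opposite strand. Each line gives bases -125 to -21 relative to the RefSeq transcript start, 5′ to 3′ on the gene's strand, from the GRCh38.p14 tables of RefSeq, in which all 6 genes were matched. Capitals mark the letters AAACACA (the H1 box), CCAAT (the CCAAT box) and TATAA (letters common in TATA elements) on the gene's strand.

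HIST1H1A: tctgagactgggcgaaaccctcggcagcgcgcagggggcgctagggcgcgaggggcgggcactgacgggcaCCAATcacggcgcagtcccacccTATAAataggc
HIST1H1C: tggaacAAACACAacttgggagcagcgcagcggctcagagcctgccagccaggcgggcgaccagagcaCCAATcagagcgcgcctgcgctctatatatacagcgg
HIST1H1T: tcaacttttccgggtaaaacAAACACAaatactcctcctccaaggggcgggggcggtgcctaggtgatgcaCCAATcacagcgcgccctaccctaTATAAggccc
HIST1H1E: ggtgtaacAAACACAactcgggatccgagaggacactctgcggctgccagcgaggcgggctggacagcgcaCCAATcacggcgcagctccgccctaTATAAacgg
HIST1H1D: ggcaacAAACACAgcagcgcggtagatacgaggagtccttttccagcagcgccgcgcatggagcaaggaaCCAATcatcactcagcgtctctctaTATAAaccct
HIST1H1B: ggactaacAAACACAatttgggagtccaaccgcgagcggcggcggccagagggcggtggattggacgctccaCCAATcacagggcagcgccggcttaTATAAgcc

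These stretches lie at chr6:26017808-26017912 (minus strand) for HIST1H1A, chr6:26056491-26056595 (minus strand) for HIST1H1C, chr6:26108156-26108260 (minus strand) for HIST1H1T, chr6:26156204-26156308 (plus strand) for HIST1H1E, chr6:26235008-26235112 (minus strand) for HIST1H1D and chr6:27867609-27867713 (minus strand) for HIST1H1B. They are GRCh38 positions and are not on the scale of the hg19 positions of the contact map. In the whole promoter window of 300 bases (250 before the start and 50 from the start on), all 6 promoters held AAACACA on 1 strand or the other, against 5.64% of 35116 RefSeq promoters. On the gene's strand 5 of 6 held it, against 2.83% of all promoters, and each of the 5 had a copy beginning 105 to 119 bases before the start. HIST1H1B had a further copy on that strand, from -226 to -220, and HIST1H1C a further copy on the opposite strand, from -242 to -236. HIST1H1A held the letters on the opposite strand alone, from -183 to -177. None of the 48 matched core histone promoters of chromosome 6 (of 49 such genes) held AAACACA on either strand. The H1 box takes its name from H1 genes, so these shares describe a known element and are not an independent test.

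The other elements were common to linker and core histone genes. All 6 H1 promoters held CCAAT on the gene's strand, beginning 53 to 57 bases before the start, as did 41 of 48 core histone promoters on that strand, against 19.6% of all promoters. With either strand counted the numbers were again 6 of 6 and 41 of 48, against 34.6% of all promoters. TATAA was found on either strand in 5 of 6 H1 promoters and 47 of 48 core histone promoters, against 20.4% of all promoters. On the gene's strand it was found in 5 of 6 and 38 of 48, against 14.8%. HIST1H1C lacked the exact letters TATAA, but its printed stretch has a run of alternating t and a at the matching place. Both strands were searched, and TATAA can overlap its own reverse complement, as at -31 in HIST1H1B. A match is a description of the letters and not of a bound site, and the deposited tables hold no binding data.

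The 6 genes lie in 2 groups of histone genes. HIST1H1A (26.02 Mb), HIST1H1C (26.06 Mb), HIST1H1T (26.11 Mb), HIST1H1E (26.16 Mb) and HIST1H1D (26.23 Mb) lie in the first, at 26.0 to 26.3 Mb. HIST1H1B (27.83 Mb) lies in the second, at 27.1 to 27.9 Mb. These hg19 positions were given to 10 kb, so each is good to 5 kb on either side. The gene order was read from the GRCh38 annotation. There, 42 core histone genes lie between HIST1H1A and HIST1H1B, 10 of H2A, 13 of H2B, 8 of H3 and 11 of H4. Between HIST1H1A and HIST1H1E there are 10 core histone genes and 1 other protein-coding gene. The stretch between the groups, from H4C8 to H2BC11, has no histone gene but 9 other protein-coding genes, 6 of them butyrophilins (immunoglobulin-like membrane proteins), and 47 tRNA genes. The second group is itself divided. A run of 51 tRNA genes and 5 other protein-coding genes separates H2AC12 from H2BC13, and HIST1H1B lies beyond it.

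Of the 6 H1 genes, 4 lay outside any listed contact domain and 2 lay inside one. Domains covered 52.1% of the valued length of chromosome 6 and 41.7% of all chromosomes, and 6 genes are too few to set against these shares. The 4 genes outside lay in 1 gap, so they are not separate observations. HIST1H1A, HIST1H1C, HIST1H1T and HIST1H1E shared a single gap of 195 kb between domains, from 26005001 to 26200000. HIST1H1A was 15 kb from the end of the domain before the gap, and HIST1H1C 55 kb. HIST1H1T was near the middle, 105 kb from that end and 90 kb from the next domain. HIST1H1E was 40 kb from the next domain. HIST1H1D lay inside that next domain, 30 kb past its start. HIST1H1B lay inside a separate domain of the second group, 55 kb past its start and 30 kb before its end. All 6 placements held when the position was moved by 5 kb either way. With only domains above the median caller score of all domains, 1 of the 6 genes, HIST1H1D, was inside one.

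**Figure D1:**
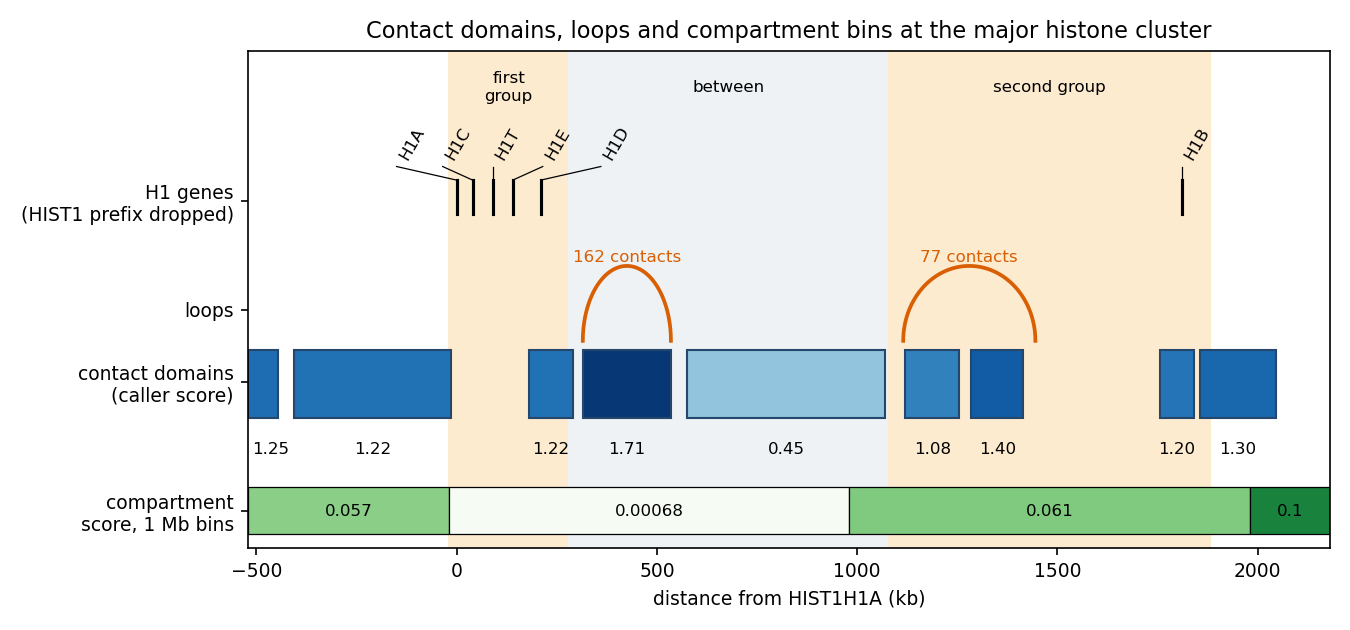
Map of the region, with distance from HIST1H1A in kb on the horizontal axis. Black ticks are the 6 H1 genes, arcs are the 2 loops with their observed contacts, blue boxes are the 9 domains with the caller's score under each (darker is higher, and the first box is clipped at the edge) and green boxes are the compartment bins with their scores. HIST1H1A, HIST1H1C, HIST1H1T and HIST1H1E stand over a gap between boxes, whereas HIST1H1D and HIST1H1B each stand over a box.

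The domains that held HIST1H1D and HIST1H1B were both short. A contact domain is a block of sequence that contacts itself more than it contacts the flanks, and here the domains were called on bins of 5 kb. The HIST1H1D domain (26200001 to 26310000) was 110 kb long with a caller score of 1.22. The HIST1H1B domain (27775001 to 27860000) was 85 kb long with a score of 1.20. The median over the 300 domains of chromosome 6 was 245 kb, with a median score of 1.20. Only 8 of those 300 were 85 kb or shorter, including the HIST1H1B domain. Both scores were thus close to the chromosome's middle, while the 44 domains of up to 110 kb had a median of 1.04 and ranged from 0.838 to 1.47. The caller's score has no stated meaning, so these are positions in a list and not strengths.

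The other 7 domains held no H1 gene. Before the first group, a 345 kb domain (25230001 to 25575000, score 1.25) reached into the region, and held a smaller domain that ended before the region began. It was followed by a 390 kb domain (25615001 to 26005000, score 1.22), whose end was the edge of the H1 gap. In the stretch between the groups, a 220 kb domain (26335001 to 26555000) had a score of 1.71, the 9th highest of the 300 on chromosome 6. Its neighbour, at 26595001 to 27090000, was 495 kb long and had a score of 0.451, the 2nd lowest of the 300. The span of the second group began with domains of 135 kb (27140001 to 27275000, score 1.08) and 130 kb (27305001 to 27435000, score 1.40). A 190 kb domain (27875001 to 28065000, score 1.30) began 15 kb after the end of the HIST1H1B domain and ran out of the second group.

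**Figure D2:**
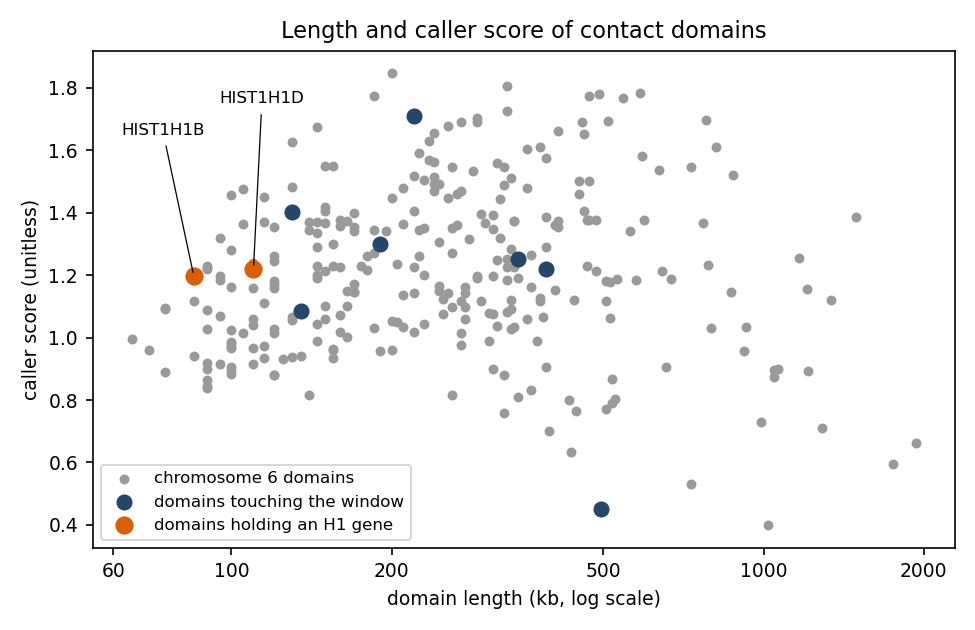
Length in kb (log scale) against caller score for the 300 domains of chromosome 6 (grey), the domains touching the region (blue) and the 2 that held an H1 gene (orange). The domains of HIST1H1D (110 kb) and HIST1H1B (85 kb) lie at the short end and at middle scores, and the 220 and 495 kb domains between the groups lie near the top and the bottom of the scores.

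The spans of the histone groups were less covered by domains than the stretch between them. Domains covered 35.0% of the first group and 46.9% of the second, against 90.6% of the stretch between. The second group was taken as its whole span. That span includes the run of 51 tRNA genes and 5 other protein-coding genes, which holds no histone gene. Its share is therefore not that of the histone genes alone. Over the whole region the share was 67.8%, compared with 52.1% of the valued length of chromosome 6 and 41.7% of all chromosomes. The order changed when low-scoring domains, among them the 495 kb domain, were left out. With only domains above the median score of all domains, the shares were 35.0%, 19.4% and 28.8% for the first group, the second group and the stretch between, so that the first group was then the most covered. The shares of the groups also depended on their edges: with 0.1 Mb added at each end they were 56.0% for the first and 56.5% for the second, against 88.5% for the stretch between. By midpoint there were 2.96 domains per Mb in the region, against 1.78 on chromosome 6 and 2.67 in its bins of positive compartment score. The tables hold 1 map with no replicate, so these shares carry no replicate error and the differences were not tested.

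The uncovered sequence of the groups was concentrated in 2 gaps. The gap with the 4 H1 genes, 195 kb, was as long as or longer than 76.9% of the 264 gaps between neighbouring domains on chromosome 6. Their median was 50 kb, the upper quartile 177.5 kb and the longest 5595 kb. Each gap counts once in these shares, whereas a gene falls more readily in a long gap, so the share does not make this gap unusual. In the span of the second group a gap of 340 kb (27435001 to 27775000) preceded the HIST1H1B domain and held no H1 gene. It was as long as or longer than 83.7% of the gaps of chromosome 6. Core histone genes were not placed on the hg19 scale, so whether this gap held any was not read. The run without histone genes between H2AC12 and H2BC13 was not placed against it either. The other gaps between the 9 domains measured 15 to 50 kb. After the last domain, a gap of 490 kb began inside the region and ended outside it. Over all 3499 gaps of the genome the upper quartile was 382.5 kb. A gap is a stretch with no listed domain, and the tables cannot tell weak structure from a call that fell below the caller's threshold.

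**Figure D3:**
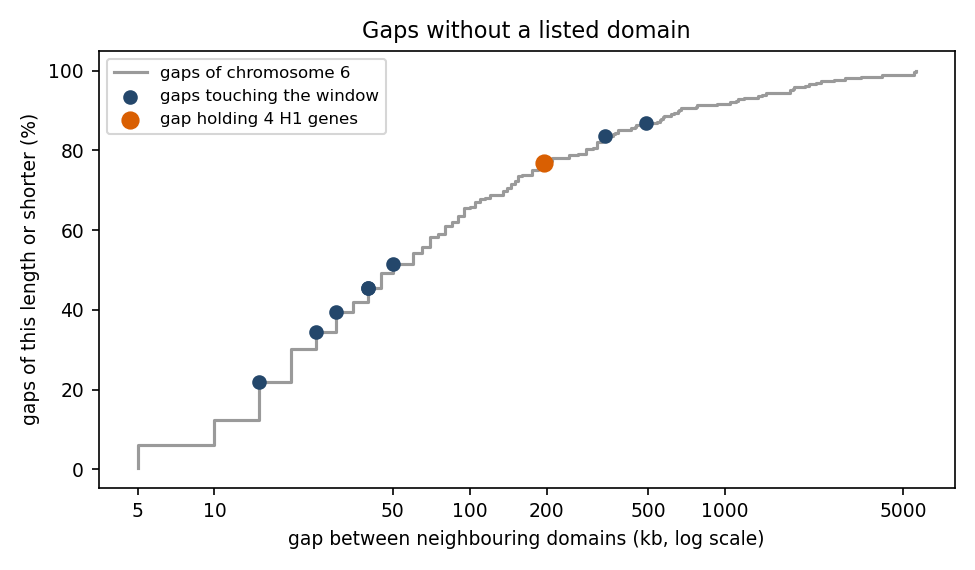
Cumulative share, in percent, of the 264 gaps between neighbouring domains on chromosome 6 by length in kb (log scale), with the gaps touching the region as points. The 195 kb gap of the 4 H1 genes (orange) lies at 76.9%, below the 340 and 490 kb gaps and above the other 6.

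No loop had an anchor in the first histone group, and no listed loop joined the 2 groups. Chromosome 6 had 1.55 loop anchors per Mb, so a stretch of 0.3 Mb, the length of the first group, would often have none. A loop joining the groups would have to span the 0.8 Mb between them, and few listed loops of chromosome 6 spanned that far. Neither absence therefore sets the groups apart. A loop is a focal excess of contacts between 2 distant sites, its anchors, and both loops lay wholly within the region. The first spanned the 220 kb domain between the groups, from 26330001-26340000 to 26550001-26560000. It had 162 observed contacts, the 2nd highest count of the 131 loops of chromosome 6. Those loops mix pixels of 5 and 10 kb and unlike spans, so their counts are not on 1 scale. The loop had 72.3 contacts expected from the donut-shaped surroundings, 80.9 from the lower left, 91.1 from the horizontal and 79.6 from the vertical neighbourhood. Its enrichment over the donut was 2.24-fold (exact Poisson interval at 95%: 1.91 to 2.61). Against the highest expectation it was 1.78-fold. It merged 5 pixels, and its highest q-value in the authors' deposited table was 1.85e-05. The contacts were many, but the surroundings were rich in contacts too. The enrichment ranked at the 13.0th percentile of the 54 loops of 200 to 400 kb on chromosome 6, whose median was 2.53-fold on 83.5 contacts. Those 54 loops also mix the 2 pixel sizes.

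The second loop lay in the second histone group, on the side away from HIST1H1B. It joined 27130001-27140000 to 27460001-27470000, 330 kb apart, with 77 contacts against 32.0 from the donut, 34.0 from the lower left, 34.0 from the horizontal and 38.4 from the vertical neighbourhood. The enrichment was 2.41-fold over the donut (1.90 to 3.01) and 2.01-fold over the highest expectation, in 1 pixel. Its highest q-value in the authors' deposited table was 0.000308. Its interval overlapped that of the first loop. Both intervals cover counting error only and hold the expectation fixed. This loop enclosed the 135 and 130 kb domains together, with anchor centres 5 kb before the start of the former and 30 kb past the end of the latter. Part of the span of the second group holds no histone gene, and core histone genes were not placed on the hg19 scale. Neither this loop nor those domains can therefore be assigned to histone genes.

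Of the 2 loops, 1 lay at a domain corner, meaning that its anchors matched the start and the end of 1 domain to within 50 kb, or to within 0.2 of the loop's length where that was larger. Over all loops the share was 63.2%. Only the 220 kb domain had such a loop, 1 of the 9 in the region, against 24.7% of all domains. Neither H1-bearing domain had one. These are 2 loops and 9 domains, too few to set against the background. The distance from each H1 gene to the nearest anchor centre was 105 kb for HIST1H1D, 175 kb for HIST1H1E, 225 kb for HIST1H1T, 275 kb for HIST1H1C, 315 kb for HIST1H1A and 365 kb for HIST1H1B. For the 5 genes of the first group that anchor was the start of the 220 kb domain, and for HIST1H1B it was the end of the 330 kb loop. Loops per Mb were 0.741 in the region and 0.775 on chromosome 6. The next listed loops lay 800 kb before the region and 1470 kb after it.

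**Figure D4:**
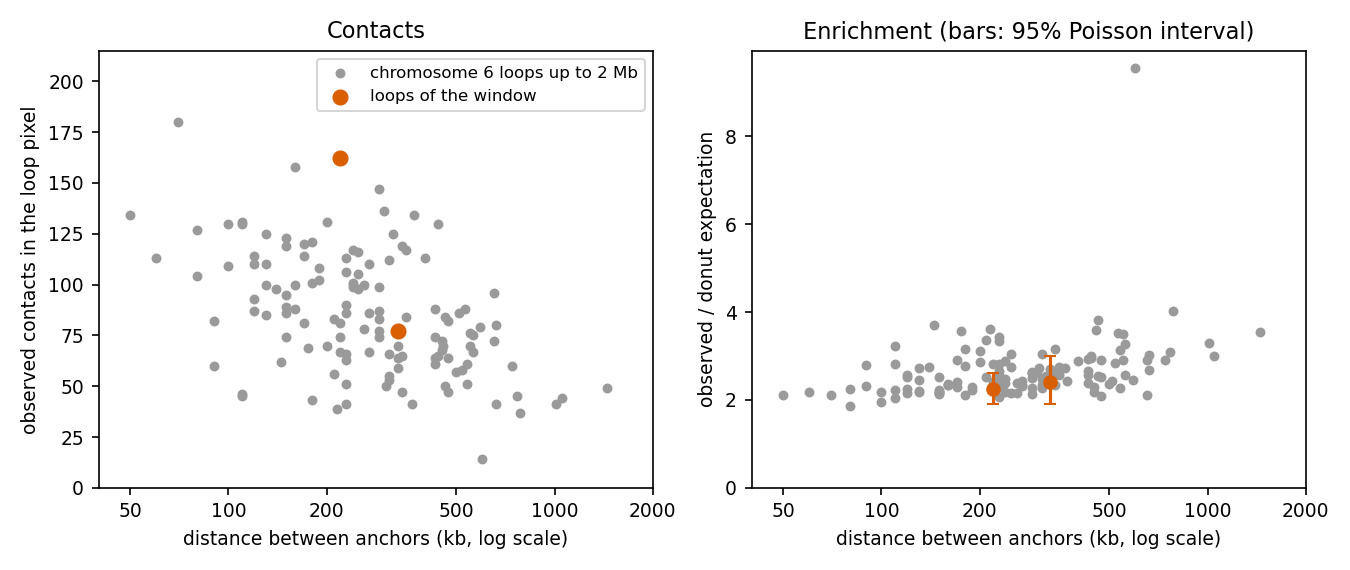
Distance between anchors in kb (log scale) against observed contacts (left) and against enrichment over the donut expectation (right) for the 131 loops of chromosome 6 (grey) and the 2 of the region (orange, with 95% Poisson intervals at right). The 220 kb loop stands high in contacts with 162, while both enrichments, 2.24 and 2.41, lie among the other loops. The grey loops mix pixels of 5 and 10 kb.

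At the scale of compartments the 2 groups fell in neighbouring bins of unequal score. Compartments are the large blocks of active (A) and inactive (B) chromatin that a Hi-C map separates, and each 1 Mb bin has 1 deposited score whose sign convention is not given. The bin at 26 to 27 Mb, with HIST1H1A, HIST1H1C, HIST1H1T, HIST1H1E and HIST1H1D, scored 0.000676. This was the smallest score in absolute size of the 169 valued bins of chromosome 6. The bin at 27 to 28 Mb, with HIST1H1B, scored 0.0608, 50th from the top and below the median of 0.0717 for the 79 positive bins. The bins on either side scored 0.0573 (25 to 26 Mb) and 0.102 (28 to 29 Mb). So the bin with 5 H1 genes was a dip to near 0 between 2 positive neighbours. By sign it was the second bin of a run of 22 positive bins from 25 to 47 Mb, which reached 0.135, the highest of the chromosome. The score carries no error, so the sign of a bin this close to 0, and with it the start of the run, is not settled. The bin before that run, at 24 to 25 Mb, scored -0.00449.

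**Figure D5:**
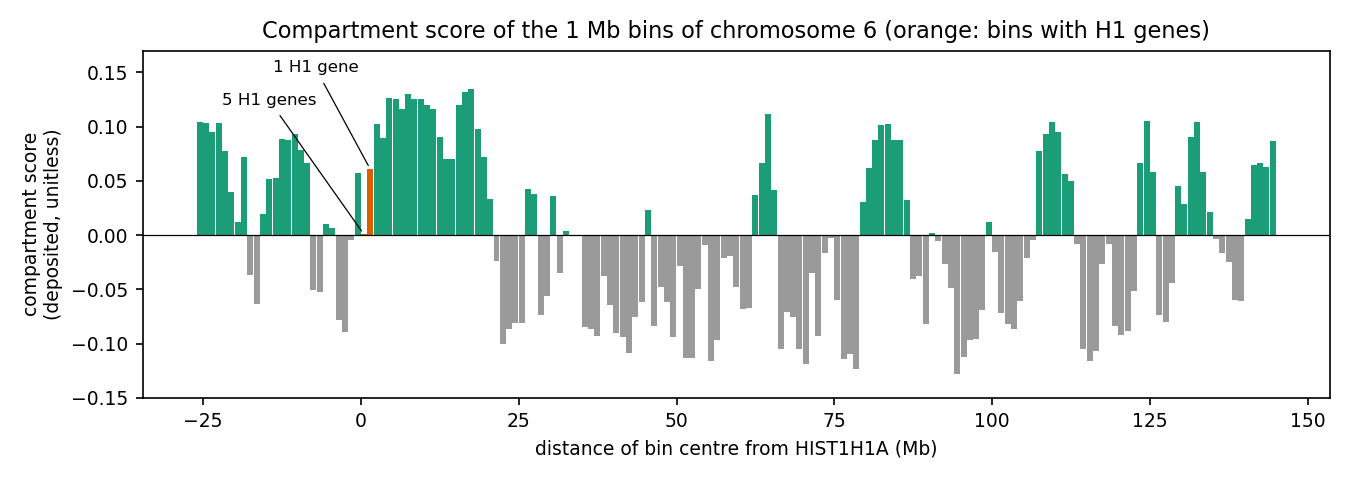
Deposited compartment score of the 169 valued 1 Mb bins of chromosome 6 against the distance of the bin from HIST1H1A in Mb, with positive bins in green, negative in grey and the bins with H1 genes in orange. The bin with 5 H1 genes scored 0.000676 and has no visible bar, and the bin with HIST1H1B scored 0.0608.

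By count, the near-zero bin was not poor in domains. By midpoint it held 3 domains, covering 74.0%, and 2 loop anchors, while the bin of HIST1H1B held 4 domains, covering 56.5%, and 2 anchors. Among the 3 was the 495 kb domain with a score of 0.451, the 2nd lowest of the 300 on chromosome 6. The covered share of the near-zero bin rests largely on that domain. Positive bins of chromosome 6 held 2.67 domains and 2.06 anchors on average, with 64.7% covered, and negative bins 0.989 domains and 1.10 anchors, with 41.0% covered. Both H1 bins were therefore closer to the positive bins in domain count. A bin of 1 Mb averages the first histone group with most of the stretch between the groups, so the score of the H1 genes themselves cannot be read from it.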

How the data were processed

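In situ Hi-C libraries of HEK293T cells, cut with MboI, were labelled as replicates 1 and 2. Nothing says that they came from separate cultures. The deposited tables hold both together. The submitters' processing notes name BWA 0.7.8, FastQC 0.11.7 and Picard, and build hg19. The methods behind the deposited compartment score and domain score were not given in the sources used here. Per the file headers, the loop table, named for HiCCUPS at 5 and 10 kb, holds the count of contacts in each pixel, the contacts expected from 4 neighbourhoods and an FDR (q-value) for each. Depth per library is unknown, and contacts per loop, both libraries together, are the only measure of depth.

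Members were the H1 genes, domains and loops touching 25.5 to 28.2 Mb of chromosome 6 and the bins inside. All members were named. They, and the motifs, were chosen with earlier results of these data known. Enrichment is contacts over the donut expectation. Gene names and order came from GRCh38 RefSeq tables and hg19 gene positions from the rule for the region. No hg19 sequence was used. Helper functions were tested on simulated data (Python 3.11.15, pandas 2.3.3, SciPy 1.17.1). Window edges, score and q-value limits, tolerances and gene positions were varied.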

Additional observations from a re-analysis of the deposited data

How the results depend on the processing

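Of 34 alternatives over 13 quantities, 23 left the value within 1.5 times (counts), within the loops' counting intervals (enrichment), within a Wilson interval that takes bins of 5 kb as independent (shares) or within the SD between bins (compartment score). The loop count stayed at 2 under all of its alternatives, and 1 loop stayed at a corner with tolerances of 25 and 10 kb. The count of H1 genes inside a domain stayed at 2 when positions moved by 5 kb, and fell to 1 with only domains above the median score of 1.20, since the HIST1H1B domain lay just below it. That limit also left 41.3% of the region covered, with 28.8% of the stretch between the groups (1 domain) and 19.4% of the second group (1 domain). Counting any overlap gave 2 domains in the first group. Segments 0.1 Mb wider had 56.0% (first group) and 56.5% (second group) covered. A region 0.5 Mb wider held 14 domains. Over the highest of the 4 expectations the median enrichment of the loops was 1.89-fold instead of 2.32-fold. No paired analysis was possible because the tables hold no column for either library, and for the same reason neither could be left out. The 77 and 162 contacts set the precision of the loops. Absence of a listed domain or loop is not absence of contact.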
